A study of Homo sapiens with 16 samples.

Results

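The DNAJ co-chaperones are the genes of the deposited polysome table whose symbol begins with DNAJA, DNAJB or DNAJC and a number. There were 37 of them among 13148 genes: 3 of class A (DNAJA1 to DNAJA3), 9 of class B and 25 of class C. The class was read from the symbol and no measured value entered this rule, though it was set with earlier results of these data known. DNAJA4 and DNAJC15 were not analysed here.

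J-domain proteins are the partners that set HSP70 chaperones to work. The J domain touches HSP70 through a conserved run of histidine, proline and aspartate and speeds the hydrolysis of its ATP, so that HSP70 closes on a client protein that the J protein has often delivered. Class A proteins carry a glycine- and phenylalanine-rich stretch and a zinc-binding region beside the J domain, class B proteins have that stretch but no zinc-binding region, and class C proteins share little beyond the J domain and serve at particular places, such as the ribosome, the spliceosome, the endoplasmic reticulum, mitochondria and vesicles. DNAJA1 and DNAJB1 belong to the heat shock response, and DNAJB9, DNAJB11, DNAJC3 and DNAJC10 to the unfolded protein response of the endoplasmic reticulum.

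Cells of the established human line 293S, grown as adherent monolayers, either received 1 mM sodium arsenite for 30 minutes or were left untreated as the control. Total RNA from 8 sucrose gradient fractions of each treatment was sequenced, which gave 16 libraries, each the single library of its treatment and fraction. As no library was repeated, the differences given here have no check against replicates and carry no p-value. The series belongs to work on Argonaute 2 contacts with mRNAs and on translation under stress.

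Each value was a share: how much of a gene's signal in a gradient fell into 1 of its 8 fractions, in percent. Shares tell nothing of how abundant an mRNA was or of how many reads stand behind a value, so a change of abundance cannot be seen here. Position is the mean fraction number weighted by these shares. Shift is the position with arsenite less that in the control, and relative shift is what remains once the median shift of all 13148 genes, -1.46 fractions, is taken off. Whether fraction 1 is the top or the bottom of the gradient is not labelled, so "lower" below means towards fraction 1 and nothing more. An mRNA was called moved higher or lower if its relative shift reached 0.5 fractions in either direction and had the same sign in all 8 repeats that each dropped 1 fraction number. How the libraries were scaled against each other is not stated. With size factors the median shift was -0.23 fractions, and values of members, classes and lists under that scaling are given where a call or count changed or a relative shift moved by more than 1.5 times.

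The coding sequence that the 37 mRNAs have in common is the run for histidine, proline and aspartate. It was searched in frame on the coding strand as CAC or CAT, then CCN, then GAC or GAT, in 1 coding transcript per gene from GENCODE release 29. All 37 members held exactly 1 such run, against 6.42% of the 13051 genes with a matched transcript that held any. Of the 16 possible spellings of these 9 bases, 13 occurred among the members. The run began at codons 34, 36 and 121 in class A, between codons 31 and 146 in class B, and between codons 31 and 1332 in class C. A lysine codon, AAA or AAG, came straight after it in 27 members. The windows of 27 bases below belong to class A and to the class B and class C members at either end of the range of relative shifts, with DNAJB1, DNAJB9, DNAJC2 and DNAJC3 added for their roles. Capitals mark the run.
DNAJA1: ttgaagtacCATCCTGATaagaaccca
DNAJA2: aaggaatatCATCCTGATaagaatcca
DNAJA3: aagaagtatCACCCTGACacaaataag
DNAJB1: ctgcgctacCACCCGGACaagaacaag
DNAJB4: ctcaaatttCATCCGGACaagaacaaa
DNAJB9: atgaagtacCACCCTGACaaaaataag
DNAJB11: ctgcagcttCATCCCGACcggaaccct
DNAJC2: ttaaaacatCACCCAGACaaacggaaa
DNAJC3: ctgcagtggCACCCAGATaacttccag
DNAJC8: atcttggtgCATCCTGACaaaaatcaa
DNAJC27: gtgcttcttCACCCTGACaaatgtgta
DNAJA1 and DNAJA2, which lie on chromosomes 9 and 16, spelled the run alike. DNAJA3 and DNAJB9 shared another spelling with DNAJC27. DNAJC27 and DNAJC8, at opposite ends of the class C relative shifts, differed in the spelling but both had AAA after it.

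All 37 DNAJ mRNAs had a lower position with arsenite than in the control, as did 12920 of all 13148 genes. Against that common movement 6 members (16.2%) were called moved higher, beside 23.6% of all genes, and 10 members (27.0%) were called moved lower, beside 24.0% of all genes. The other 21 members were not called. These shares lay near those of all genes and are no result about the family as a whole. The family's median relative shift was -0.04 fractions, with median positions of 3.04 with arsenite and 4.47 in the control for the members, beside 3.10 with arsenite and 4.54 in the control for all genes. With size factors 9 members were called moved higher, beside 28.7% of all genes, and 8 moved lower, beside 26.4%. Both scalings called 13 members alike, and DNAJC6, DNAJC12 and DNAJC13 changed sign between them. When fraction 6 was left out, only 6 members were called moved lower. With arsenite no member had 50% or more of its total in fractions 5 to 8, against 20 members in the control, and over all genes 2.34% did with arsenite and 58.6% in the control.

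Class A stood lower than classes B and C. All 3 class A mRNAs were called moved lower, with a median relative shift of -1.33 fractions and a range of -1.53 to -0.75. In class B 2 of 9 were called moved higher (DNAJB4 and DNAJB14) and 3 moved lower (DNAJB11, DNAJB6 and DNAJB1), with a median of -0.20 and a range of -0.88 to 0.70. In class C 4 of 25 were called moved higher (DNAJC27, DNAJC28, DNAJC21 and DNAJC25) and 4 moved lower (DNAJC8, DNAJC17, DNAJC7 and DNAJC9), with a median of 0.07 and a range of -0.94 to 1.26. With size factors all 3 class A mRNAs were again called moved lower. Under that scaling class B had 3 of 9 called higher and 1 lower, with a median of -0.06, and class C 6 of 25 higher and 4 lower, with a median of 0.14. Beside these counts, 23.6% of all genes were called moved higher and 24.0% moved lower, or 28.7% and 26.4% with size factors. The class counts were not tested against these shares, and those of classes B and C are no result about these classes. The ranges of the classes overlap, since DNAJC8, DNAJC17 and DNAJB11 lay below DNAJA3.

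**Figure D1:**
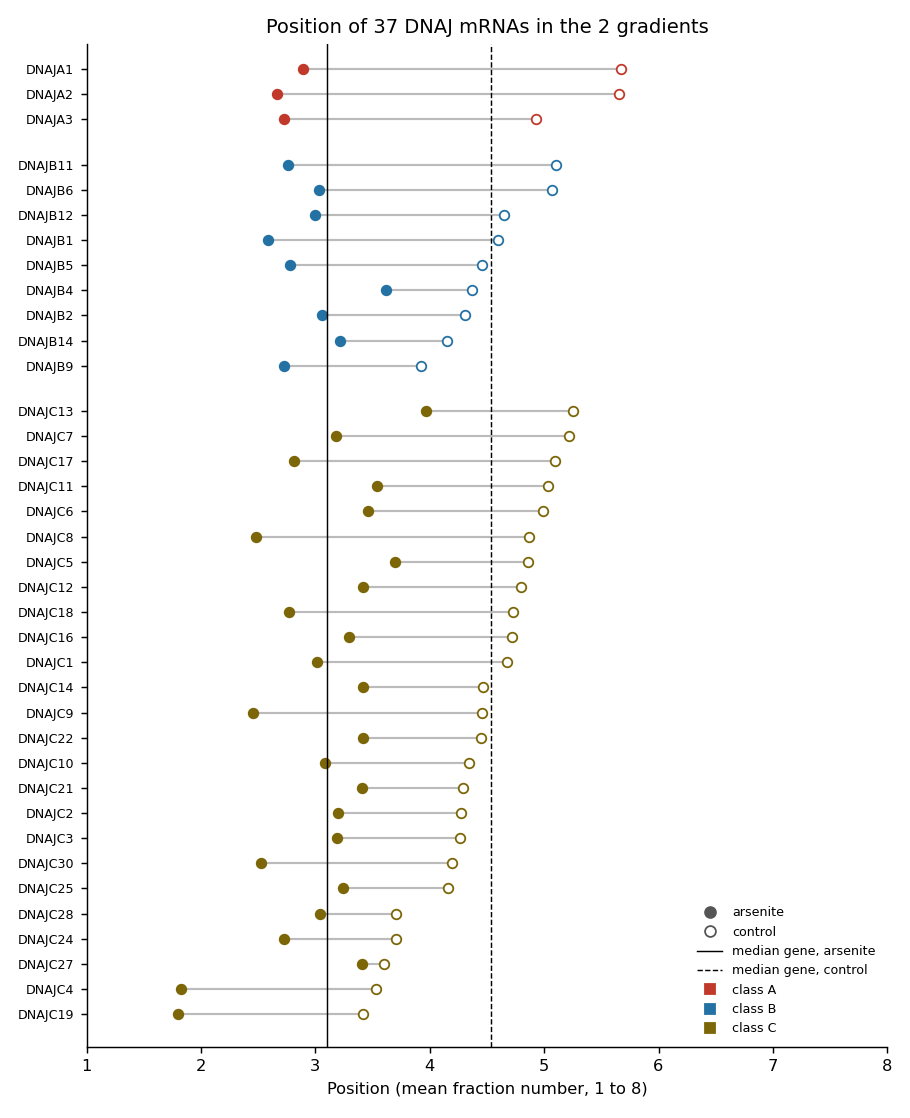
Position (mean fraction number, 1 to 8) of each of the 37 DNAJ mRNAs, filled points with arsenite and open points in the control, coloured by class and sorted within a class by control position; the vertical lines are the median gene with arsenite (3.10, solid) and in the control (4.54, dashed). Every filled point lies left of its open point, and DNAJA1 and DNAJA2 have the longest lines.

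With arsenite the class A median peaked in fraction 2 at 44.9%, where class B had 32.7%, class C 20.5% and all genes 23.9%. In the control the class A median peaked in fraction 7 at 32.2%, where class B had 7.03%, class C 7.59% and all genes 7.76%. Class B and class C had control medians that peaked in fraction 5, at 23.3% and 20.01%, beside 19.1% for all genes.

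In some fractions most class C mRNAs lay outside the class A range, and in some of these most class B mRNAs did too. In arsenite fraction 2, 23 of 25 class C mRNAs but only 3 of 9 class B mRNAs had a smaller share than any class A mRNA. In control fraction 6, 22 class C and 7 class B mRNAs lay below every class A mRNA. In control fraction 4, 24 class C and 7 class B mRNAs lay above every class A mRNA. The median share over all genes lay outside the class A range in each of these fractions as well. It was 23.9% in arsenite fraction 2, 14.8% in control fraction 6 and 17.5% in control fraction 4. How many of all genes lay beyond the class A range was not counted, so these counts are no result about classes B and C. The classes overlapped in control fraction 7, where class A spanned 6.49 to 34.8%, class B 3.84 to 14.2% and class C 1.27 to 29.7%. DNAJA3 was the low member of class A there.

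On the log2 scale, after 1 percentage point was added to each share, the class A median of arsenite over control was 2.77 in fraction 2 and -3.39 in fraction 7. The same log2 ratios were 1.67 and -1.83 in class B, 1.71 and -1.60 in class C, and 1.50 and -1.86 over all genes. Their size depended on the points added. With 10 points the class A medians were 1.80 and -1.79, beside 0.91 and -0.63 over all genes. With 0.1 points they were 2.95 and -3.83 in class A, beside 1.62 and -2.44 over all genes. In fraction 5, with 1 percentage point added, the median log2 ratio was lowest in class B. It was -1.59 there, beside -0.63 in class A, -0.71 in class C and -0.72 over all genes. With 10 points added these values were -0.89, -0.31, -0.45 and -0.44. The members overlapped in this fraction, with control shares of 10.1 to 24.9% in class A, 17.0 to 33.5% in class B and 8.33 to 37.9% in class C. The arsenite shares there were 5.32 to 10.6% in class A, 4.44 to 24.2% in class B and 2.64 to 25.7% in class C. Pooled over fractions 5 to 8, the median share of class A was 10.3% with arsenite and 77.9% in the control, while class B had 12.3% with arsenite and 49.7% in the control, and class C 17.9% with arsenite and 52.1% in the control. For all genes these medians were 16.4% with arsenite and 53.9% in the control.

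**Figure D2:**
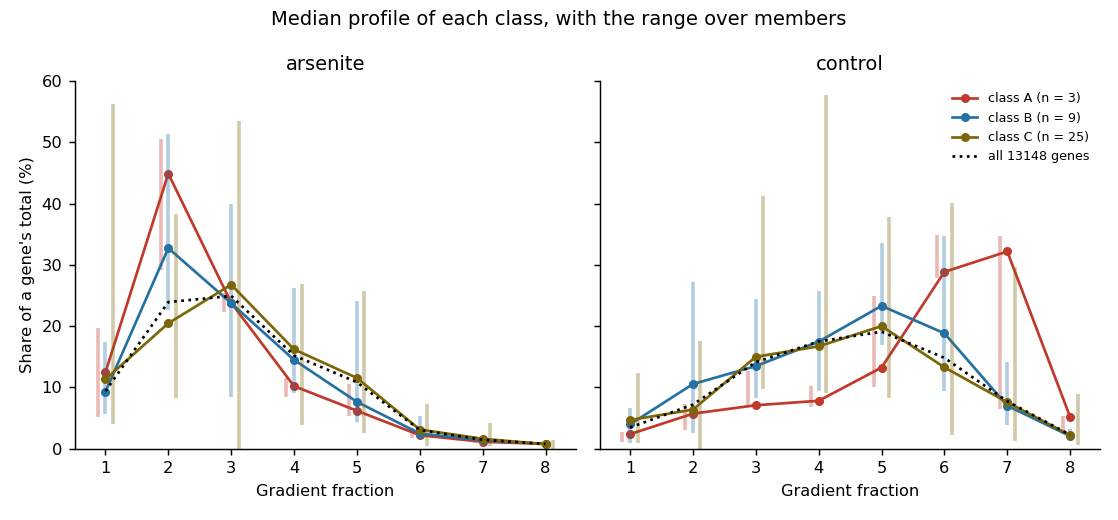
Median share of a gene's total (%) in each of the 8 fractions with arsenite (left) and in the control (right) for classes A, B and C and for all 13148 genes (dotted); vertical bars span the lowest to the highest member of a class. Class A has the highest median of the 3 classes in arsenite fraction 2 (44.9%) and in control fraction 7 (32.2%).

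Class A proteins are the general-purpose helpers of HSP70: DNAJA1 and DNAJA2 work in the cytosol and nucleus, and DNAJA3 in mitochondria. DNAJA2 had 12.4, 44.9, 23.8, 8.49, 6.21, 2.22, 1.14 and 0.785% with arsenite, against 2.38, 5.73, 7.10, 6.87, 10.1, 27.9, 34.8 and 5.18% in the control, in fractions 1 to 8, the order of every list of 8 shares here. With arsenite its profile dropped away after fraction 2, whereas in the control it climbed to fraction 7. Its position was 2.66 with arsenite and 5.65 in the control, a relative shift of -1.53, and the members' largest change of profile went with it: 67.6% of its total would have to change fraction to turn the arsenite profile into the control one, beside a median of 44.6% for all genes.

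DNAJA1, the heat-inducible member of the class, had 19.7, 29.2, 22.3, 11.5, 10.6, 3.37, 2.17 and 1.15% with arsenite, against 2.80, 3.04, 6.77, 7.83, 13.2, 28.9, 32.2 and 5.27% in the control. Its arsenite profile was spread more evenly over fractions 1 to 3 than that of DNAJA2, and its control profile was close to that of DNAJA2. Its position was 2.89 with arsenite and 5.67 in the control, a relative shift of -1.33. GENCODE names 6 pseudogenes of DNAJA1, and how reads shared with such copies were counted is not given, which makes its values uncertain.

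DNAJA3 had 5.15, 50.5, 25.4, 10.2, 5.32, 1.77, 1.01 and 0.561% with arsenite, against 1.06, 7.32, 12.8, 10.2, 24.9, 34.9, 6.49 and 2.35% in the control. Its arsenite profile was the most concentrated of the class in fraction 2, but in the control it peaked in fraction 6 and held little in fraction 7. With a position of 2.72 with arsenite and 4.93 in the control, its relative shift was -0.75, and it was under the threshold without fraction 2 (-0.38) or fraction 6 (-0.42).

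The class A mRNAs also had high control positions, and relative shift went with control position. Over the 37 members the Spearman correlation of relative shift with control position was -0.66, and over all genes -0.55, with control position entering both measures. DNAJA2 and DNAJA1 had control positions above those of 96.0% and 96.4% of all genes. Set against genes of like control position in place of the median gene, the class A shifts were -0.70 for DNAJA2, -0.49 for DNAJA1 and -0.48 for DNAJA3, so the class A median was -0.49 where it had been -1.33. The same centring gave medians of -0.16 in class B and 0.18 in class C. Among the 6 members called moved higher the median went from 0.64 to 0.29, and among the 10 called moved lower from -0.79 to -0.51. Set against genes of like mRNA length, the medians were -1.20 in class A, -0.10 in class B and 0.09 in class C.

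**Figure D3:**
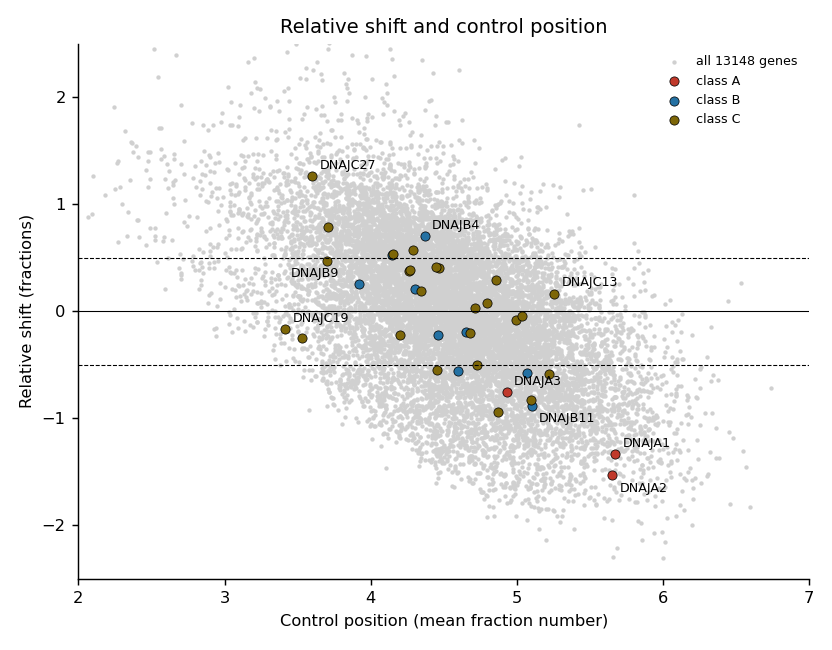
Relative shift (fractions) against control position (mean fraction number) for all 13148 genes in grey and the 37 DNAJ members coloured by class; dashed lines mark 0.5 fractions either way, and 25 genes lie outside the axes. DNAJA1 and DNAJA2 sit at the lower right (relative shifts of -1.33 and -1.53) and DNAJC27 at the upper left (1.26).

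Among class B, the lowest mRNA was DNAJB11, whose product ERdj3 serves BiP in the lumen of the endoplasmic reticulum. It had 17.5, 30.4, 30.7, 9.09, 7.66, 2.39, 1.41 and 0.853% with arsenite, against 3.98, 2.64, 8.28, 10.8, 29.9, 30.7, 10.7 and 3.07% in the control. Fractions 2 and 3 held most of it with arsenite, and fractions 5 and 6 in the control. Its relative shift was -0.88, with positions of 2.76 with arsenite and 5.10 in the control.

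DNAJB6, a suppressor of protein aggregation, had 9.29, 32.7, 27.7, 14.5, 10.3, 3.29, 1.35 and 0.861% with arsenite, against 4.03, 7.99, 8.29, 9.48, 18.0, 34.8, 14.2 and 3.27% in the control. Its arsenite profile was broader than that of DNAJA3, while its control peak in fraction 6 was as high. The relative shift was -0.58 and lost its call with size factors (-0.39), without fraction 2 (-0.48) and without fraction 6 (-0.37).

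DNAJB1, the heat-inducible HSP40 that pairs with HSP70 in the cytosol and nucleus, had 14.8, 45.1, 21.7, 10.0, 4.44, 2.05, 1.15 and 0.711% with arsenite, against 3.84, 13.3, 8.84, 12.1, 26.9, 26.9, 6.49 and 1.58% in the control. Fraction 2 held far more of it than any other fraction with arsenite, as in DNAJA2 and DNAJA3, but in the control it spread over fractions 5 and 6 and reached fraction 7 little. Its position was 2.58 with arsenite and 4.60 in the control, and its relative shift of -0.56 lost its call with size factors (-0.27), without fraction 5 (-0.42) and without fraction 6 (-0.29).

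At the other end of class B stood DNAJB4, a cytosolic relative of DNAJB1. It had 7.81, 25.3, 8.43, 26.2, 24.2, 5.34, 1.55 and 1.14% with arsenite, against 4.37, 14.7, 11.4, 20.3, 23.3, 12.1, 11.7 and 2.07% in the control. With arsenite it was high in fractions 2, 4 and 5 with a dip in fraction 3, and its share in fraction 5 was within 1 point of the control. Its relative shift was 0.70, with positions of 3.62 with arsenite and 4.37 in the control, and 32.2% of it stayed in fractions 5 to 8 with arsenite. DNAJB5, the other cytosolic relative of DNAJB1, was not called, at -0.22 (-0.06 with size factors), with positions of 2.78 with arsenite and 4.46 in the control.

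DNAJB14, a membrane protein of the endoplasmic reticulum, had 15.9, 22.6, 18.6, 19.1, 17.5, 4.15, 1.40 and 0.786% with arsenite, against 5.31, 8.35, 24.4, 19.9, 21.0, 13.7, 5.68 and 1.60% in the control. Its arsenite profile was nearly level over fractions 1 to 5. The relative shift of 0.52 was close to the threshold and was under it without fraction 3 (0.41), 5 (0.47), 7 (0.40) or 8 (0.49). DNAJB12, its close relative in the same membrane, had positions of 2.998 with arsenite and 4.65 in the control and was not called, at -0.20.

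DNAJB9, the ER-lumen protein ERdj4 that is induced by unfolded proteins, had 11.3, 44.1, 23.8, 10.2, 6.08, 2.49, 1.40 and 0.675% with arsenite, against 6.58, 27.1, 13.5, 9.88, 17.0, 17.1, 6.47 and 2.29% in the control. It was the only member whose largest control share lay in fraction 2, and fractions 1 and 2 together held 33.7% of it in the control, the highest such control value among the members. Over all genes 4.44% had at least 30% there. Its positions were 2.72 with arsenite and 3.92 in the control, and its relative shift of 0.25 was called moved higher with size factors (0.68). Exons of DNAJB9 overlap those of other annotated genes, and whether the counting used strand is not given, so reads from them cannot be told apart.

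The remaining class B member, DNAJB2, a co-chaperone that steers clients towards the proteasome, had positions of 3.06 with arsenite and 4.30 in the control and relative shifts of 0.21 as deposited and 0.47 with size factors. It was called under neither scaling.

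**Figure D4:**
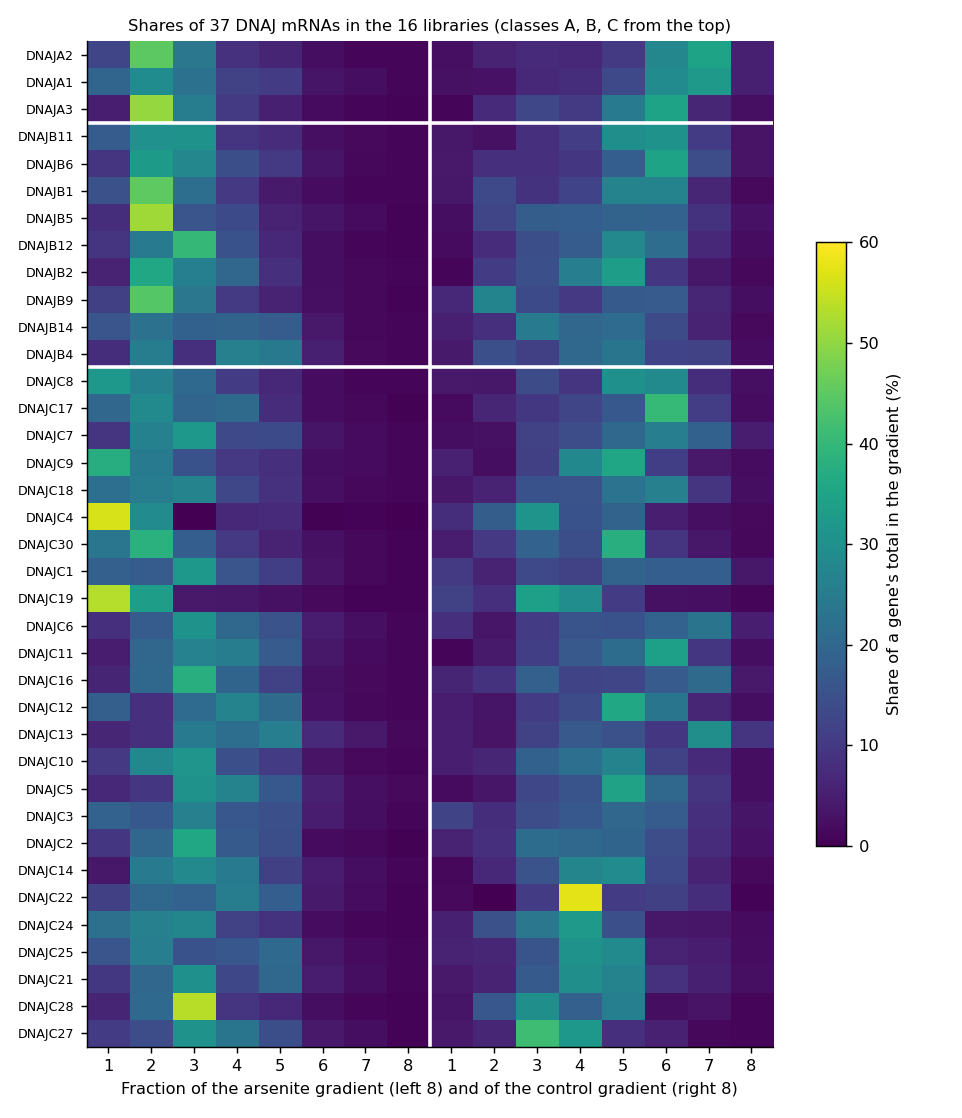
Share of each member's total (%) in the 8 arsenite fractions (left) and the 8 control fractions (right), with classes A, B and C from the top and members sorted within a class by relative shift. The bright arsenite fraction 2 of DNAJA2 and DNAJA3 (44.9% and 50.5%) stands beside the bright arsenite fraction 1 of DNAJC4 and DNAJC19 (56.3% and 53.3%) and fraction 3 of DNAJC28 (53.5%).

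The largest arsenite share of the class C mRNAs lay in fraction 1 for 4 mRNAs, in fraction 2 for 3, in fraction 3 for 15, in fraction 4 for 2 and in fraction 5 for 1. All 3 class A mRNAs and 6 of 9 class B mRNAs had theirs in fraction 2. Over all genes fraction 2 was largest for 34.5% and fraction 3 for 37.2%. Profiles of the class A mRNAs differed from each other by 11.4 to 27.4% of the total, averaged over both treatments, with a median of 20.7% over 3 pairs. Pairs within class B had a similar median of 21.9%, and pairs of class A with class B 23.6%. Pairs within class C had a median of 26.1% and pairs of class A with class C 32.5%. The closest pair of all members was DNAJC1 and DNAJC3 (8.64%) and the most distant DNAJC19 and DNAJC5 (59.8%).

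The class C members of the ribosome and the spliceosome divided. DNAJC8, a protein found with splicing factors, was the lowest of class C and had 32.0, 26.3, 20.4, 10.6, 6.96, 2.07, 0.960 and 0.708% with arsenite, against 4.05, 3.90, 13.8, 9.14, 30.1, 28.6, 7.85 and 2.53% in the control. Fraction 1 was its largest with arsenite and fraction 5 in the control. Its relative shift was -0.94, with positions of 2.48 with arsenite and 4.87 in the control.

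DNAJC17, also linked to splicing, had 19.9, 28.5, 19.5, 20.6, 7.67, 1.99, 1.36 and 0.433% with arsenite, against 1.75, 6.51, 9.69, 12.6, 16.4, 40.1, 10.9 and 2.08% in the control. Its arsenite profile spread over fractions 1 to 4, while its control profile had a single peak in fraction 6. Its relative shift was -0.83, with positions of 2.81 with arsenite and 5.09 in the control, and -0.47 without fraction 6.

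DNAJC21, which takes part in the making of the large ribosomal subunit, had 9.67, 19.7, 30.1, 12.9, 20.02, 4.54, 2.18 and 0.885% with arsenite, against 4.08, 5.91, 16.9, 29.9, 26.7, 8.57, 5.31 and 2.56% in the control. Fraction 4 lost more of it than any other fraction, and fractions 2 and 3 gained most. At 0.57 its relative shift was called, and it was under the threshold without fraction 6 (0.42) or 7 (0.40).

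DNAJC2, the ribosome-bound J protein that meets nascent chains, had 9.41, 19.9, 35.7, 17.0, 14.4, 1.70, 1.37 and 0.408% with arsenite, against 6.04, 8.18, 21.2, 20.3, 19.3, 14.3, 7.59 and 3.04% in the control. Fraction 3 gained most and fraction 6 lost most. Its relative shift of 0.38 was not called and was 0.19 with size factors. The relative shift of DNAJC24, needed for the diphthamide modification of elongation factor EF2, was 0.47 with positions of 2.72 with arsenite and 3.70 in the control, and it was not called either.

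DNAJC1, DNAJC3 and DNAJC10, the class C members listed for the endoplasmic reticulum, were not called in the shares as deposited. DNAJC3, the lumenal P58IPK known for restraining the stress kinase PERK, had 18.8, 16.5, 26.1, 16.3, 14.6, 4.67, 2.20 and 0.898% with arsenite, against 12.3, 7.92, 14.3, 16.6, 19.8, 17.4, 8.23 and 3.45% in the control. Its arsenite and control shares were nearly equal in fraction 4, and its change of profile was 26.9%. The relative shift was 0.38, or 0.83 with size factors, where it was called moved higher. The relative shift of DNAJC10, the disulfide reductase ERdj5, was 0.19 as deposited and 0.44 under size factors, and that of DNAJC1 was -0.21. Positions were 3.08 with arsenite and 4.34 in the control for DNAJC10, and 3.02 with arsenite and 4.68 in the control for DNAJC1. DNAJC14, a further membrane protein of the endoplasmic reticulum that is not in the list counted below, had positions of 3.41 with arsenite and 4.47 in the control. Its relative shift was 0.40 as deposited and 0.57 with size factors, where it too was called moved higher.

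DNAJC11, DNAJC19 and DNAJC30, the class C members listed for mitochondria, were not called. DNAJC19, a subunit of the protein import motor of the inner membrane, had 53.3, 33.5, 4.01, 3.82, 2.64, 1.41, 0.695 and 0.669% with arsenite, against 11.8, 8.34, 33.9, 29.3, 10.5, 2.74, 2.57 and 0.906% in the control, the lowest positions of any member in both gradients at 1.79 with arsenite and 3.41 in the control. Its relative shift was -0.16, yet 66.6% of its profile changed and it lay -0.95 from genes of like control position. GENCODE names 9 pseudogenes of DNAJC19, so its values are uncertain. DNAJC11 of the mitochondrial membranes lay at -0.04 relative to the median gene (-0.11 with size factors) and DNAJC30 at -0.22, or -0.03 with size factors. Positions were 3.54 with arsenite and 5.04 in the control for DNAJC11, and 2.52 with arsenite and 4.20 in the control for DNAJC30.

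Among the members of membrane traffic, DNAJC27, a J protein with a Rab-like GTPase domain, had 10.4, 14.2, 30.7, 23.4, 14.4, 4.17, 2.19 and 0.493% with arsenite, against 4.14, 6.52, 41.3, 32.0, 8.33, 5.51, 1.27 and 0.899% in the control. It was the only one of the 37 whose share in fractions 5 to 8 was larger with arsenite, at 21.3% with arsenite and 16.01% in the control. With positions of 3.41 with arsenite and 3.60 in the control it had the highest relative shift of the family, 1.26, above 96.9% of all genes. Its control position was above that of only 6.25% of all genes. Against genes of like control position its shift was 0.68.

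DNAJC13, an endosomal protein, kept 38.5% in fractions 5 to 8 with arsenite, the highest arsenite value among the members, against 63.2% in the control. Its positions were 3.97 with arsenite and 5.26 in the control, the highest of the family with arsenite. Relative to the median gene it shifted by 0.17, and by -0.08 with size factors. DNAJC5, the cysteine string protein of synaptic and secretory vesicles, was not called, at 0.30, with positions of 3.70 with arsenite and 4.86 in the control. DNAJC6, the auxilin that uncoats clathrin vesicles, lay at -0.08, or 0.17 with size factors, with positions of 3.46 with arsenite and 4.99 in the control.

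Of the cytosolic and nuclear helpers in class C, DNAJC7, which binds both HSP70 and HSP90, had 9.08, 26.2, 31.9, 13.1, 13.5, 3.39, 1.65 and 1.08% with arsenite, against 2.33, 2.62, 11.8, 14.2, 20.01, 25.8, 18.7 and 4.57% in the control. Its arsenite peak lay in fraction 3 and its control peak in fraction 6. The relative shift was -0.58, and -0.38 without fraction 2 and -0.48 without fraction 7. DNAJC9, a histone chaperone, had positions of 2.45 with arsenite and 4.45 in the control and a relative shift of -0.55 that rested on fraction 1, since it was -0.04 without it. It was also under the threshold without fraction 5 (-0.37) and with size factors (-0.49).

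DNAJC28, also among the highest class C mRNAs, had 6.24, 20.5, 53.5, 9.05, 6.95, 2.28, 0.848 and 0.686% with arsenite, against 3.43, 16.2, 30.0, 18.4, 25.9, 2.28, 3.14 and 0.811% in the control. Fraction 3 was its largest in both gradients and gained most with arsenite, while fraction 5 lost most. Its positions were 3.04 with arsenite and 3.71 in the control and its relative shift 0.79. DNAJC25, with positions of 3.24 with arsenite and 4.16 in the control, was called moved higher as well, at 0.54 (0.85 with size factors), but was under the threshold without fraction 6 (0.36) or 7 (0.36).

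The other class C members were not called. DNAJC18 lay just short of the threshold at -0.498 and was called moved lower with size factors (-0.58), with positions of 2.77 with arsenite and 4.73 in the control. DNAJC16 lay at 0.03 (0.15 with size factors), with positions of 3.29 with arsenite and 4.71 in the control. DNAJC12, a partner of the aromatic amino acid hydroxylases, lay at 0.07 (-0.14 with size factors), with positions of 3.42 with arsenite and 4.80 in the control. These were close to the median gene. DNAJC4 was listed at 0 in 2 libraries, arsenite fractions 3 and 8, and had positions of 1.83 with arsenite and 3.53 in the control. DNAJC22 was listed at 0 in 1 library, control fraction 2, and had positions of 3.41 with arsenite and 4.45 in the control. The relative shift of DNAJC4 was -0.25, or -1.05 with size factors, and that of DNAJC22 was 0.42, or 0.14 with size factors and -0.14 without fraction 4.

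The members were also grouped by place and role, which was not separated from class. The lists are not complete, since DNAJC14 is missing from that of the endoplasmic reticulum. Counts and medians depend on which members were listed. These counts stand beside 23.6% of all genes called moved higher and 24.0% moved lower, or 28.7% and 26.4% with size factors. Of 9 cytosolic and nuclear HSP70 helpers 6 were called moved lower and 1 higher (DNAJB4), with a median relative shift of -0.56 fractions. With size factors 3 of these 9 were called moved lower, since DNAJB1, DNAJB6 and DNAJC9 lost the call. Of the 7 members listed for the endoplasmic reticulum 1 was called each way (DNAJB11 lower, DNAJB14 higher), with a median of 0.19. With size factors DNAJB9 and DNAJC3 were also called moved higher there, which made 3 higher and 1 lower, and the median was 0.44.

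The 4 members listed for mitochondria had a median relative shift of -0.19 with DNAJA3 called moved lower. The 4 listed for membrane traffic had a median of 0.23 with DNAJC27 called moved higher. The 5 of the ribosome, translation and splicing had a median of 0.38, or 0.19 with size factors, with DNAJC21 called moved higher and DNAJC8 and DNAJC17 lower. The heat-inducible DNAJA1 and DNAJB1 were both called moved lower as deposited, and DNAJA1 alone with size factors. Of the 4 members induced by unfolded proteins DNAJB11 was called moved lower under both scalings, and DNAJB9 and DNAJC3 moved higher with size factors. The median of these 4 was 0.22, or 0.56 with size factors. Set against genes of like control position, the medians were -0.34 for the cytosolic and nuclear helpers, -0.16 for the endoplasmic reticulum, -0.51 for mitochondria, -0.11 for the ribosome, translation and splicing, 0.56 for membrane traffic and -0.08 for the members induced by unfolded proteins. The sign thus turned for the endoplasmic reticulum, for the ribosome, translation and splicing and for the members induced by unfolded proteins.

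The mRNAs listed as HSP70 partners had a more negative median relative shift than the DNAJ family as a whole. Their median positions of 3.30 with arsenite and 5.92 in the control were nevertheless higher than those of the family. The list holds HSP70 chaperones and the related HSP110-type proteins HSPA4, HSPA4L, HSPH1 and HYOU1, which act as exchange factors. The HSP110-type mRNAs were all called moved lower, at -1.33, -1.09, -1.07 and -0.80 in that order. Of 14 HSP70 partners 11 were called moved lower and none higher, beside 24.0% and 23.6% of all genes, with a median relative shift of -1.08 fractions. Against genes of like control position that median was -0.33. With size factors 12 of these 14 were called moved lower and none higher, beside 26.4% and 28.7% of all genes. The lowest was HSPA1B at -1.61, with positions of 3.20 with arsenite and 6.26 in the control, and the highest HSPA12A at 0.28. HSPA1B and HSPA1A are near-identical copies, so their values are not independent. Of 14 other exchange factors and adaptors of the HSP70 cycle 9 were called moved lower and 1 higher, with a median of -0.78. They ran from STIP1 at -1.51 to BAG4 at 0.54, and BAG4 lay at 0.83 with size factors. With size factors 9 were called moved lower and 3 higher, and against genes of like control position the median was -0.47. Of 4 J-domain proteins with other names 1 was called moved lower: GAK, an auxilin relative, at -0.58.

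**Figure D5:**
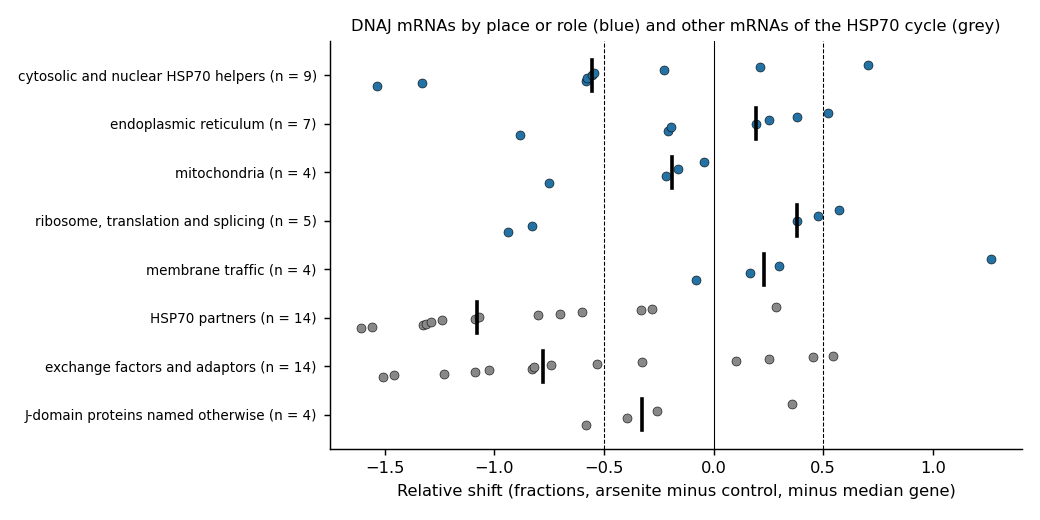
Relative shift (fractions) of DNAJ mRNAs by place or role (blue) and of other mRNAs of the HSP70 cycle (grey); each point is an mRNA, the short black bar is the median of its list, and dashed lines mark 0.5 fractions either way. The medians run from -1.08 for the HSP70 partners to 0.38 for the DNAJ members of the ribosome, translation and splicing.

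The members also differed in length, and position went with it. Median coding length was 1236 nt in class A, 1020 nt in class B and 1080 nt in class C, beside 1428 nt over all genes, and median mRNA length was 2763, 2715 and 3311 nt, beside 3286 nt. Over the 37 members the Spearman correlation of coding length with position was 0.44 with arsenite and 0.33 in the control, and over all genes 0.67 with arsenite and 0.38 in the control. An ATG in the 5' leader was found in 20 members (54.1%), beside 53.7% of all genes. None of the 3 class A mRNAs had one, against 5 of 9 in class B and 15 of 25 in class C. These class counts were not tested and depend on the 1 transcript taken per gene, the longer among otherwise equal ones. The leader taken for DNAJC9 was 1673 nt long and held 28 ATGs. Exons of 15 members overlap those of another annotated gene, on the opposite strand for 12. None of them is of class A, but the called members DNAJB11, DNAJC7, DNAJC9, DNAJC17 and DNAJC25 are among them, and their part in these profiles was not tested.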

How the data were processed

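RNA of the gradient fractions, with arsenite or untreated, was extracted with Trizol, primed by the NSR method and sequenced, per the labels' protocols. Titles gave the group of each library.

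A single table of 13148 genes was deposited by the authors, and its 16 library columns hold the fraction of a gene's total in each part of a gradient. Per the file headers the values cover exons of RefSeq genes, and the submitters' processing notes name hg19 as the build. Aligner, counter, use of strand and library scaling are not given in the sources used. The deposited score columns hold the mean fraction number, which was recomputed and differed by at most 8.9e-15.

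Depth is unknown, so no interval or floor is given. From the shares, positions, shifts and calls were computed with Python 3.11.15, numpy 2.4.6 and pandas 2.3.3. The steps were also run on simulated profiles with planted shifts above the call threshold. That run held no library or scaling error, so it gives no error rate for the calls made here. Log2 ratios used a pseudocount of 1 percentage point, or of 0.1 or 10 points where stated. Size factors were medians of ratios over the 16 libraries.

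Lengths and sequences came from GENCODE release 29, 1 transcript per gene, matched by symbol for 13051 genes (99.3%, 735 by an older symbol) and all 37 members. It is on another build, so no coordinates are given. A protein table was not used here.

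The members and lists were chosen with earlier results of these data known. All 16 shares were given for class A, for the 3 highest and 3 lowest relative shifts of classes B and C among the 35 members with no 0, and for DNAJB1, DNAJB9, DNAJC2 and DNAJC3. Of other lists the highest and lowest member was named, save 1 that is not reported here, and members not covered by these rules were named after their values were seen.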

Additional observations from a re-analysis of the deposited data

How the results depend on the processing

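Of the 16 members called, 7 kept their call with size factors, with 1 percentage point added before shares were taken, and without each fraction number: DNAJA1, DNAJA2, DNAJB4, DNAJB11, DNAJC8, DNAJC27 and DNAJC28. The other 9 lost it in at least 1 of these 10 alternatives. No relative shift of a called member changed sign, but without each fraction number the rule for a call already required this. Adding 1 percentage point scaled all relative shifts alike, so only size factors could have changed a sign. Of the 21 members not called, 8 gained a call in at least 1. Centring on genes of like control position was not among the 10 alternatives, and no call was made with it. So centred, the 7 members that kept their call lay at -0.49, -0.70, 0.51, -0.53, -0.67, 0.68 and 0.21, in the order named above. DNAJA1 and DNAJC28 were thus under 0.5 fractions in size.

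The class A median of -1.33 fractions was -1.59 without fraction 5, -1.04 without fraction 7, -1.70 with the 50% point of the profile used as position, and -0.49 when centred on genes of like control position. The 10 members called moved lower became 6 without fraction 6. A threshold of 0.25 fractions gave 11 members moved higher, and a threshold of 1 fraction gave 1 higher and 2 lower. A stricter or looser threshold passes fewer or more members by construction, and otherwise the cause was not tested. The median over all members, -0.04, changed sign without fraction 3 (0.08) and without fraction 7 (0.00029). Under the other alternatives, the class medians of relative shift kept their sign and, where in fractions, moved by under 0.25. The counts of members moved by at most 1.5 times. The log2 ratios depended on the pseudocount, as given above. Centring on mRNA length was added after the data were seen. No paired analysis was possible because each treatment and fraction holds 1 library. Read depth is unknown, so the counting error of a share cannot be stated.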
